A study of Mus musculus with 6 samples.

Results

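The heterotrimeric G protein subunits described here are Gnas, Gnai2, Gnai3, Gnaq, Gna12, Gna13, Gnb1, Gnb2, Gng2 and Gng12. These 10 genes were chosen from earlier results of the same comparison, 15-HETE + LPS against LPS, so their differences are given as a description and no p is printed for them. Every probe was taken whose only gene symbol in the platform annotation is one of these names. That rule found 12 of the 33012 probes on the array, for 8 of the 10 genes. Gnas had 3 probes, Gna13 and Gng2 had 2 each, and Gnai2, Gnai3, Gnaq, Gnb2 and Gng12 had 1 each. Gna12 and Gnb1 had no probe of that symbol alone and were not analysed here.

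A heterotrimeric G protein is an alpha subunit that binds GDP or GTP, held to a tight pair of a beta and a gamma subunit. A ligand-bound receptor in the plasma membrane makes the alpha subunit exchange GDP for GTP, after which alpha and beta-gamma separate and each acts on its own effectors until GTP is hydrolysed. Gs stimulates adenylyl cyclase, Gi inhibits it, Gq activates phospholipase C beta, and G12 and G13 act through a family of guanine nucleotide exchange factors. In macrophages these proteins carry signals from chemoattractant, prostaglandin, purine and lipid mediator receptors.

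RAW 264.7 cells, a mouse macrophage-like line, were either given 40 μM 15(S)-HETE, a hydroxylated product of arachidonic acid, together with 1 μg/mL LPS, or 1 μg/mL LPS alone. LPS is a bacterial endotoxin and was present in both groups, which the text calls 15-HETE + LPS and LPS. Total RNA was harvested after 24 h, and each group held 3 biological replicates of 6 pooled wells each. The sample numbers of the groups lie in separate blocks. If the groups were run apart, an effect of the run cannot be told apart from that of 15-HETE. All samples come from 1 cell line, so p-values measure the spread between cultures of that line. An intensity is a mean over the pooled cells, and fewer responding cells cannot be told apart from less RNA per cell.

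The values were quantile-normalized intensities with a median of 837.3 in every sample, and the array number limits their precision. A probe was over the array median if its mean log2 over the 6 samples exceeded the median of such means. That cutoff is not the per-sample median of 837.3. Of the 10 macrophage markers, 7 had a probe and all 7 lay over the array median. Their summed intensity was 3668852 to 3804622 in 15-HETE + LPS and 2543943 to 3302095 in LPS, and limma, the linear-model test run on all probes, called 0 of them (1 higher and 0 lower at an unadjusted p under 0.05). Lyz2 made up most of the sum, with means of 2573367 in 15-HETE + LPS and 2119353 in LPS. All 7 differences were above 0, with a median of 0.23. The groups did not overlap at 4 of these markers, all higher, beside 17.5% of all genes. Markers of other cell types had probes for 13 of 15 genes, 7 of them over the median. Their sum was 20858 to 21797 in 15-HETE + LPS and 29020 to 36231 in LPS, with 0 called (0 higher and 2 lower unadjusted, Dcn and Krt8). Without those genes the sum was 13482 to 14074 in 15-HETE + LPS and 12078 to 14481 in LPS. As they were taken out for being lower in this same comparison, nothing is read from that sum. Over the 13 genes 6 differences were above and 7 below 0, with a median of -0.01. Their part in the results below was not tested. LPS replicate 1 stood apart among the brighter probes. It was the highest or the lowest of the 6 samples at 53.2% of the probes over the median, against 39.8% for 15-HETE + LPS replicate 1 and 24.7 to 30.5% for the other 4 samples. Over all probes, dim ones included, these shares were 42.4% for LPS replicate 1, 40.1% for 15-HETE + LPS replicate 1 and 26.3 to 33.0% for the others. Of the 12 probes of the G protein subunits, LPS replicate 1 was outermost at 9 and 15-HETE + LPS replicate 1 at 5. Differences of the 12 probes are therefore given with and without LPS replicate 1. For other genes the value without it is given for some only.

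Gnas, the gene of the Gs alpha subunit, had 1 probe that was higher in every sample with 15-HETE and 2 whose groups overlapped. It lies on mouse chromosome 2, chr2:174284320-174346744 in GRCm38.p6, has 12 RefSeq transcripts and is known for imprinted transcripts that begin at alternative first exons. The platform annotation matched its 3 probes to 3 different RefSeq transcripts. The RefSeq promoter windows of the gene begin at separated start sites, and the 250 bases before 3 of them are shown because they differ in composition. The remaining window, of 4, largely overlaps the second and is left out. All are on the plus strand, at chr2:174284070-174284319, chr2:174327499-174327748 and chr2:174329756-174330005, written 5′ to 3′. Capitals mark matches on either strand to TATAAA (the TATA box), GGGCGG (the GC box) or TGACG (the first part of the cAMP response element).
Gnas, start site 174284320: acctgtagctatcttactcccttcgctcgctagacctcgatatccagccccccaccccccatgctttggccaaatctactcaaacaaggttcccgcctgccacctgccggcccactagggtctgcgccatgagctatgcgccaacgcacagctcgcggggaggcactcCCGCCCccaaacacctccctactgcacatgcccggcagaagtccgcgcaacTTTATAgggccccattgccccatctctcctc
Gnas, start site 174327749: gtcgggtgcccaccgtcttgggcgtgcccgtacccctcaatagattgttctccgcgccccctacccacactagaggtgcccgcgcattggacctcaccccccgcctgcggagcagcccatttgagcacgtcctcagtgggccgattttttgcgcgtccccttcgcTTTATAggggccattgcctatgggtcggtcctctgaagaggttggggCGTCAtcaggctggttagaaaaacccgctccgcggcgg
Gnas, start site 174330006: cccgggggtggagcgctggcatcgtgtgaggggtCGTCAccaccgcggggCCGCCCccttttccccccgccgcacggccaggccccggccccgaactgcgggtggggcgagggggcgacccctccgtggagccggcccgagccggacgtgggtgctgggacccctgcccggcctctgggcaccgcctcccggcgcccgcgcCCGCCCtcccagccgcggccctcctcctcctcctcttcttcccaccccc

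GC content was 61.6% in the first of these windows, 63.2% in the second and 80.0% in the third, against a median of 52.4% over 32851 mouse windows of the same length. TATAAA occurred, as its reverse complement, at position -31 of the first window and -85 of the second, counted back from the start site, and not in the third. It was found in 12.4% of all windows. GGGCGG stood at -82 in the first window and at -200 and -49 in the third, and occurs in 32.7% of windows. TGACG stood at -38 in the second window and at -216 in the third, and occurs in 17.8% of windows. These are letter matches only. The files do not say at which start site the transcript under each probe begins, so no probe was assigned to a window.

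Gnas probe 646267 read 13277, 16905 and 14766 in the 15-HETE + LPS replicates and 9159, 7866 and 7398 in the LPS replicates. All 3 samples with 15-HETE lay above all 3 without it. The mean was 14982 ± 1824 in 15-HETE + LPS and 8141 ± 912 in LPS (SD, n = 3 each), a 1.84-fold ratio of geometric means. The log2 difference, always 15-HETE + LPS minus LPS, was 0.88 with a standard error (SE) of 0.19 from the limma fit. Without LPS replicate 1 it was 0.97.

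Gnas probe 599266 read 276432, 323568 and 318564 in 15-HETE + LPS, against 425652, 281486 and 287622 in LPS. LPS replicate 1 was the highest of the 6 samples, and the other 5 overlapped. The log2 difference was -0.09 (SE 0.23), and 0.10 without LPS replicate 1, so its direction turned with that sample. The difference at this probe minus that at probe 646267 was -0.97, and the per-sample gap between the probes did not overlap between the groups.

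The remaining Gnas probe, 573503, lay below the array median in every sample. It read 357.4, 203.6 and 335.8 in 15-HETE + LPS and 234.3, 113.3 and 343.8 in LPS, and the groups overlapped. Its log2 difference of 0.47 was about the size of its SE, 0.46. The difference was 0.56 without LPS replicate 1, and ranged from 0.03 to 0.83 over the alternatives. The per-sample gaps between this probe and each of the other Gnas probes overlapped between the groups.

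**Figure D1:**
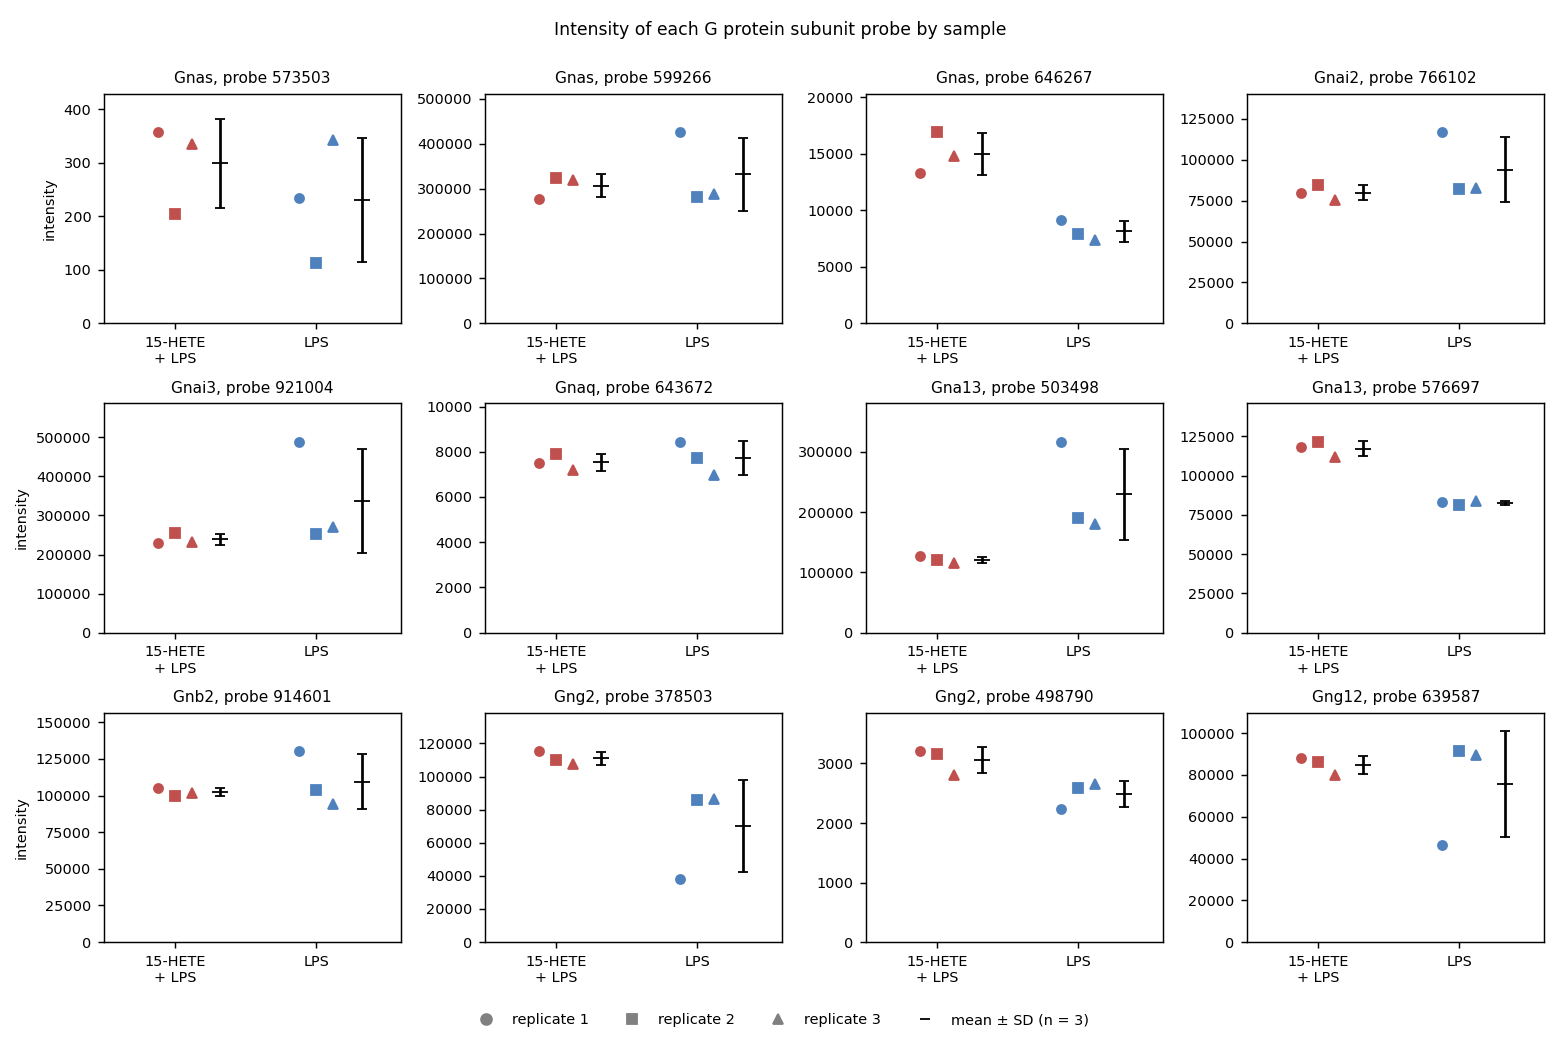
Intensity (linear axis from 0, scaled per panel) of the 12 probes, by group, with 1 symbol per replicate and the mean ± SD (n = 3) in black. Gnas 646267, Gna13 576697 and both Gng2 probes are higher in all 15-HETE + LPS samples and Gna13 503498 is lower, and LPS replicate 1 (blue circle) is outside the other 5 samples in 9 panels.

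The Gi alpha subunits, which inhibit adenylyl cyclase and are abundant in leukocytes, had overlapping groups and differences that shrank without LPS replicate 1. Gnai2 (chr9:107614125-107635391) read 79438, 84684 and 75663 in 15-HETE + LPS and 116863, 82254 and 82668 in LPS. The log2 difference was -0.21 (SE 0.21), and -0.05 without LPS replicate 1. For Gnai3 (chr3:108107275-108146152) the intensities were 229904, 254644 and 232904 in 15-HETE + LPS and 489066, 252028 and 269553 in LPS. LPS replicate 1 was again far above the other 5 samples, which lay close together. The log2 difference of -0.43 (SE 0.29) became -0.13 without it.

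Gnaq (chr19:16132684-16388520), the alpha subunit that activates phospholipase C beta, was nearly level. Its probe read 7484, 7910 and 7185 in 15-HETE + LPS and 8448, 7745 and 6961 in LPS, with overlapping groups. The log2 difference was -0.03 (SE 0.18), and 0.03 without LPS replicate 1. It was 0.04 when the arrays were scaled to housekeeping genes, so no direction can be given.

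Gna13 (chr11:109362794-109401369), an alpha subunit of the G12/13 family, had probes that moved in opposite directions, although the platform annotation matched both to the same RefSeq transcript. Probe 503498 read 126517, 120542 and 116227 in 15-HETE + LPS, against 316654, 190258 and 180935 in LPS. Every sample with 15-HETE was below every sample without it, at a log2 difference of -0.87 (SE 0.26), or -0.62 without LPS replicate 1. Probe 576697 read 118473, 121723 and 111843 in 15-HETE + LPS and 83000, 81621 and 84146 in LPS. Here every sample with 15-HETE was above every sample without it, at a log2 difference of 0.50 (SE 0.16), which was also 0.50 without LPS replicate 1.

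The difference at Gna13 probe 503498 minus that at probe 576697 was -1.37 on the log2 scale, and the per-sample gaps did not overlap between the groups. RefSeq lists 2 transcripts of Gna13, and the files hold no probe sequence that would place either probe on them. No single direction can therefore be given for the gene. The directions of both probes stayed the same under every alternative run, from -1.02 to -0.62 for probe 503498 and from 0.47 to 0.58 for probe 576697.

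Gnb2 (chr5:137528127-137533449), 1 of the beta subunits that form the propeller-shaped partner of gamma, read 105189, 99826 and 101412 in 15-HETE + LPS, against 130386, 104101 and 94048 in LPS. The groups overlapped, with LPS replicate 1 highest. The log2 difference was -0.09 (SE 0.20), and 0.05 without that sample.

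Both probes of Gng2 (chr14:19872558-19977825), a gamma subunit that anchors the beta-gamma pair to the membrane through its lipid group, were higher in 15-HETE + LPS in all samples. Probe 378503 read 115380, 110256 and 107722 in 15-HETE + LPS and 37939, 85532 and 86555 in LPS. LPS replicate 1 was far below the other LPS samples, and the log2 difference of 0.76 (SE 0.35) was 0.37 without it. Probe 498790, matched to the same RefSeq transcript, read 3209, 3160 and 2814 in 15-HETE + LPS and 2240, 2582 and 2649 in LPS. Its log2 difference was 0.30 (SE 0.18), and 0.22 without LPS replicate 1. The Gng2 probes shared a direction, but differed in size by 0.46, and here too the per-sample gaps between the probes did not overlap between the groups. The gap between their differences shrank without LPS replicate 1, when they were at 0.37 (SE 0.12) and 0.22 (SE 0.14).

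Gng12 (chr6:66896397-67021361), another gamma subunit, read 87986, 86211 and 79875 in 15-HETE + LPS and 46334, 91457 and 89357 in LPS. LPS replicate 1 was the lowest sample, and the other LPS samples were the highest. The log2 difference was 0.23 (SE 0.30) with all samples and -0.10 without LPS replicate 1.

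**Figure D2:**
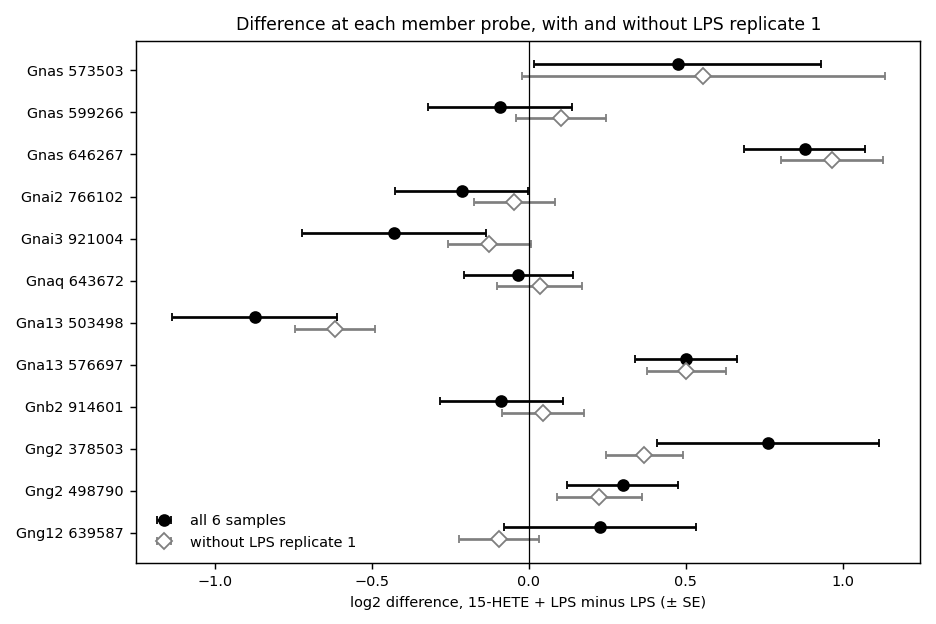
Log2 difference (15-HETE + LPS minus LPS) ± SE of the limma fit at the 12 probes, with all 6 samples (filled circles) and without LPS replicate 1 (open diamonds). Gnas 646267 moves from 0.88 to 0.97 and Gna13 576697 stays at 0.50, while Gng2 378503 moves from 0.76 to 0.37 and Gnai3 from -0.43 to -0.13.

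Counted together, 6 of the 12 differences were above 0 and 6 below, with a median of 0.10, or 0.07 without LPS replicate 1, beside a median of 0.01 over all probes. At 5 of the 12 probes the groups did not overlap, which was the case at 30.0% of all probes. Of these, 4 were higher in 15-HETE + LPS, beside 13.7% of all probes, and 1 was lower, beside 16.3%. Limma with an adjusted p under 0.05 called 0 of the 12 probes and 0.951% of all probes (2 of the 12 were higher and 1 lower at an unadjusted p under 0.05, beside 8.62% and 11.0% of all probes). With a prior variance that follows intensity, it called 3 of the 12, namely Gnas 646267 and both Gna13 probes, and 8.84% of all probes. Leaving out LPS replicate 1 from that fit gave 4, with Gng2 378503 added, beside 15.6% of all probes. With the fold rule of the study's methods, 1.8-fold in 2 of 3 treated samples, and an unadjusted p of at most 0.025, 1 of the 12 passed, Gnas 646267, beside 4.22% of all probes. The methods apply a Benjamini-Hochberg correction. With it, but without the study's filter on signal-to-noise and flags, 0 of the 12 passed. That held whether it covered all probes, when 0 of 33012 passed, or those past the fold rule, when 0.267% of all probes did. The study, which used that filter, lists Gnas probe 646267 among its altered transcripts. As the contrast was known when the genes were chosen, nothing is read from these counts.

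Over the 11 probes above the array median, the coefficient of variation was 2.70 to 12.2% in 15-HETE + LPS and 1.53 to 39.7% in LPS, and was lower in 15-HETE + LPS at 9 of them. Over LPS replicates 2 and 3 alone it was 0.355 to 7.54%, and then lower in 15-HETE + LPS at 2 of the 11. LPS replicate 1 was left out because it was the outermost sample, and no sample with 15-HETE was left out. A smaller spread in LPS was therefore built in, and nothing is read from it.

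LPS replicate 1 did not stand apart in a single direction. Among the subunits over the array median it was above the other 5 samples at 5 of 7 alpha probes and at the Gnb2 probe, and below them at all 3 gamma probes. The same count was then taken over the subunits outside the 10 genes, a comparison added after these values were seen. LPS replicate 1 was below the other 5 samples at 5 of their 7 gamma probes and above at 1, and above at 1 of 4 alpha and 1 of 3 beta probes. Over all probes above the median it was above the others at 29.7% and below them at 23.5%. Gng5 read 189851, 184108 and 195698 in 15-HETE + LPS and 94465, 211640 and 205621 in LPS. In Gngt2 the intensities were 82387, 82435 and 81842 in 15-HETE + LPS, against 33708, 83895 and 68808 in LPS. LPS replicate 1 was the lowest sample for both, and for Gngt2 LPS replicate 3 also lay below the samples with 15-HETE. Without LPS replicate 1 the log2 difference of 0.24 at Gng5 became -0.14, and that of 0.50 at Gngt2 became 0.11.

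**Figure D3:**
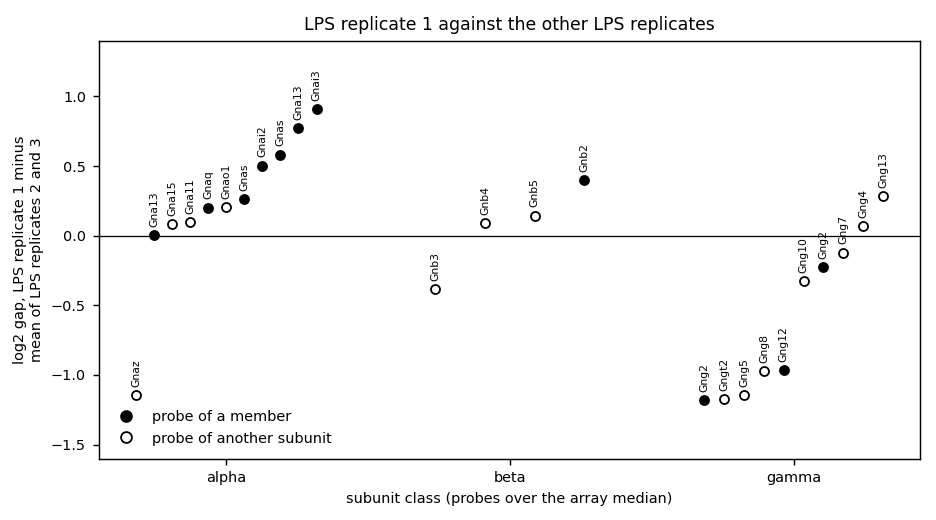
Log2 gap between LPS replicate 1 and the mean of LPS replicates 2 and 3, for the probes of all G protein subunits over the array median, by class, with filled circles for probes of the 10 genes and open circles for other subunits. The gap is 0.50 at Gnai2 and 0.91 at Gnai3 but -1.14 at Gnaz among the alpha subunits, and -1.18 at Gng2 378503, -0.96 at Gng12 and -1.14 at Gng5 but 0.29 at Gng13 among the gamma subunits.

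Of 23 further alpha, beta and gamma subunits, 21 had a probe, and each was read at its brightest one. Limma called 0 higher and 1 lower, beside 0.759% of 13840 genes called higher and 0.368% called lower. The gene that fell was Gnb3, a beta subunit known from cone photoreceptors. It read 1567, 2443 and 3057 in 15-HETE + LPS, against 7513, 9854 and 9758 in LPS, and all samples with 15-HETE were below those without it. The log2 difference was -1.98 (SE 0.30, limma adjusted p = 0.0498). The median over the 21 genes was -0.26, with 9 above and 12 below 0, beside 0.02 over all genes.

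Other beta subunits gave values on both sides. Gnb4 had 431.9, 345.2 and 807.3 in 15-HETE + LPS and 1153, 1124 and 1044 in LPS, at a log2 difference of -1.16 (SE 0.34, limma adjusted p = 0.14). Gnb5, which pairs with RGS proteins in place of a gamma subunit, had 6195, 6305 and 5203 in 15-HETE + LPS and 4370, 3859 and 4058 in LPS (0.52, SE 0.18, limma adjusted p = 0.188). Neither passed, although their groups did not overlap. Gnb5 was called higher among probes above the median only, and with the intensity trend when LPS replicate 1 was left out.

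Among the gamma subunits Gng10 read 68733, 70010 and 62283 in 15-HETE + LPS and 33288, 40424 and 43080 in LPS. Its log2 difference was 0.79 (SE 0.19, limma adjusted p = 0.102), and 0.68 without LPS replicate 1. Gng10 passed only when the prior followed intensity or when the probes below the median were left out. Gng13 lay lower in every sample with 15-HETE, at -0.95 (SE 0.26, limma adjusted p = 0.125), and was called lower among probes above the median only. Gng5, a ubiquitous gamma subunit, had a second probe below the array median with a log2 difference of -0.58, against 0.24 at its brightest probe. Among the alpha subunits Gnat1, the transducin alpha subunit of rod photoreceptors, had the lowest p. It read 384.3, 406.1 and 376.0 in 15-HETE + LPS and 800.2, 1206 and 899.9 in LPS, below the array median on average. Its groups did not overlap, at a log2 difference of -1.30 (SE 0.21, limma adjusted p = 0.0571), and it passed with the offset of 100 and with the fold rule at an unadjusted p. Gnal, the alpha subunit of olfactory neurons and also dim, was at -0.70 (SE 0.32, limma adjusted p = 0.294), with groups that did not overlap. Gna11, a close relative of Gnaq, and Gna15, the Gq family member of blood cells, gave -0.26 (SE 0.17) and 0.06 (SE 0.17), and neither passed.

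The genes around the G proteins were counted over lists of receptors, regulators and effectors, which with the further subunits held 142 genes, 108 of them measured. Limma called 1 higher and 2 lower, and 12 in each direction had an unadjusted p under 0.05 (beside 10.7% of all genes higher and 10.6% lower). The same shares stand beside the unadjusted counts of each list below. Of the 108 genes, 20 were higher and 24 lower with groups that did not overlap, beside 17.5% and 17.7% of all 13840 genes. The median log2 difference was -0.01. With the intensity trend 4 were called higher and 4 lower, beside 5.85% and 5.33% of all genes.

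Both called receptors are known to signal through G proteins of the families above. Ptger2, the prostaglandin E2 receptor that couples to Gs, read 13293, 15162 and 12824 in 15-HETE + LPS and 4339, 5138 and 4377 in LPS. It rose by 1.58 on the log2 scale (SE 0.18, limma adjusted p = 0.0362). Fpr2, a formyl peptide receptor that couples to Gi, read 1456, 1452 and 1324 in 15-HETE + LPS and 4477, 7030 and 7491 in LPS. It fell by 2.13 (SE 0.25, limma adjusted p = 0.0368). The calls of Ptger2, Fpr2 and Gnb3 were lost by limma without any 1 of the 6 samples, when 0 probes of the array passed, and were kept in all 6 such fits with the intensity trend. Scaling to housekeeping genes ended the calls of Fpr2 and Gnb3, and cyclic loess and a robust prior that of Gnb3.

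Of the 3 Gs-coupled receptors measured, Ptger2 passed and Ptger4, another prostaglandin E2 receptor, had overlapping groups at a log2 difference of 0.57 (SE 0.26). Ptgir, the prostacyclin receptor, is named because it completes the list. It was lower in every sample with 15-HETE, at -0.27 (SE 0.23), and at -0.06 without LPS replicate 1. Among 13 Gi-coupled receptors 4 were higher and 1 lower at an unadjusted p under 0.05, beside 10.7% and 10.6% of all genes. Their groups did not overlap at 5 that were higher and 1 that was lower, beside 17.5% and 17.7% of all genes. C5ar1, the complement C5a receptor, gave 15671, 15075 and 14387 in 15-HETE + LPS and 8485, 5676 and 6725 in LPS (1.13, SE 0.21, limma adjusted p = 0.0677). C5ar1 was called higher with the intensity trend, the offset of 100, housekeeping scaling and probes above the median only. It also passed the fold rule at an unadjusted p. None of 7 receptors coupled to Gq or G12/13 passed (0 higher and 1 lower at an unadjusted p under 0.05). The lower one was Lpar6, a lysophosphatidic acid receptor, at -0.88 (SE 0.21), and P2ry6, a receptor for UDP, was next by p at 0.46 (SE 0.19). Lpar6 was called lower among probes above the median only and with the fold rule at an unadjusted p.

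Effectors of the alpha subunits were not called by limma. Of 7 adenylyl cyclases, which make cAMP and are the targets of Gs and Gi, 1 was higher and 1 lower at an unadjusted p under 0.05. Adcy2 read 12322, 11002 and 11891 in 15-HETE + LPS and 7041, 6555 and 6708 in LPS (0.79, SE 0.17, limma adjusted p = 0.0816). For Adcy9 the values were 4168, 4877 and 4612 in 15-HETE + LPS and 9155, 6631 and 6342 in LPS (-0.68, SE 0.21, limma adjusted p = 0.163). Without LPS replicate 1 the differences were 0.82 for Adcy2 and -0.51 for Adcy9. The groups of neither gene overlapped, and with the intensity trend Adcy2 was called higher and Adcy9 lower.

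Among 5 effectors of G12/13, the pathway of Gna13, 4 were below 0, beside 6693 of 13840 genes. Limma called 0 of them, with 2 lower at an unadjusted p under 0.05, beside 10.6% of all genes. Arhgef1, a guanine nucleotide exchange factor that binds G13, read 11820, 12302 and 13050 in 15-HETE + LPS, against 22738, 18589 and 17981 in LPS (-0.67, SE 0.18, limma adjusted p = 0.129). It was called lower with the intensity trend and among probes above the array median only. Arhgef11, a related exchange factor, read 3297, 4806 and 4098 in 15-HETE + LPS and 9711, 5287 and 6062 in LPS (-0.75, SE 0.29, limma adjusted p = 0.235), and -0.49 without LPS replicate 1. The groups of neither gene overlapped. Over the 5 effectors the groups did not overlap at 3 that were lower and 1 that was higher, beside 17.7% and 17.5% of all genes.

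In the cAMP branch, 0 of 9 effectors such as protein kinase A subunits and 0 of 6 cAMP phosphodiesterases were called. At an unadjusted p under 0.05, 1 of these effectors was lower, Prkaca, a catalytic subunit of protein kinase A (-0.62, SE 0.26), and 1 phosphodiesterase was higher, Pde8b (0.83, SE 0.20), whose probe lay below the array median. Pde8b also passed the fold rule at an unadjusted p. Next by p were Prkar2a (-0.27, SE 0.16) and Pde8a (-0.34, SE 0.20), at -0.23 and -0.19 without LPS replicate 1.

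Of 9 chaperones and other regulators of G proteins 0 were called. The groups did not overlap at 1 that was higher and 4 that were lower, beside 17.5% and 17.7% of all genes. With the intensity trend and without LPS replicate 1, a fit chosen after seeing the data, 6 of the 9 were called, 2 higher and 4 lower. Over all 108 pathway genes that fit called 11 higher and 11 lower, beside 21.7% of all genes in either direction. As this list was picked out under that fit, nothing is read from its count. By limma on all 6 samples the lowest p was that of Gpsm2, which holds Gi alpha subunits in the GDP-bound form, at 0.55 (SE 0.20). Next was Ccdc88a, an activator of Gi alpha subunits, at -0.43 (SE 0.17). Without LPS replicate 1 they were at 0.70 and -0.37. Gpsm2 and Ccdc88a were the only 2 with an unadjusted p under 0.05. Receptor kinases and arrestins, which switch receptors off, had 5 genes measured and 0 called, also at an unadjusted p under 0.05. Grk5 was at 0.34 (SE 0.19) and Arrb2 at -0.21 (SE 0.19), and without LPS replicate 1 they were at 0.41 and -0.11. RGS proteins, which speed GTP hydrolysis on alpha subunits, had 15 of 18 genes measured and 0 called, also at an unadjusted p under 0.05. The lowest p was at Rgs18 (0.65, SE 0.30), then Rgs17 (0.40, SE 0.20). The Rgs18 probe lay below the array median, and its groups overlapped. Of 5 genes for phospholipase C beta and its downstream steps, 0 were called and 1 was lower unadjusted, Plcb4 (-0.67, SE 0.19). Plcb4 was called lower among probes above the median only. Plcb2 was next by p, at -0.89 (SE 0.39), with a probe below the array median and groups that overlapped. Of 3 beta-gamma effectors 0 were called and 1 was higher unadjusted. Pik3r5, the regulatory subunit that lets beta-gamma act on PI3K gamma, was at 0.81 (SE 0.28, limma adjusted p = 0.193), and 1.08 without LPS replicate 1. Pik3cg, its catalytic partner, was at -0.20 (SE 0.24), and -0.03 without LPS replicate 1.

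**Figure D4:**
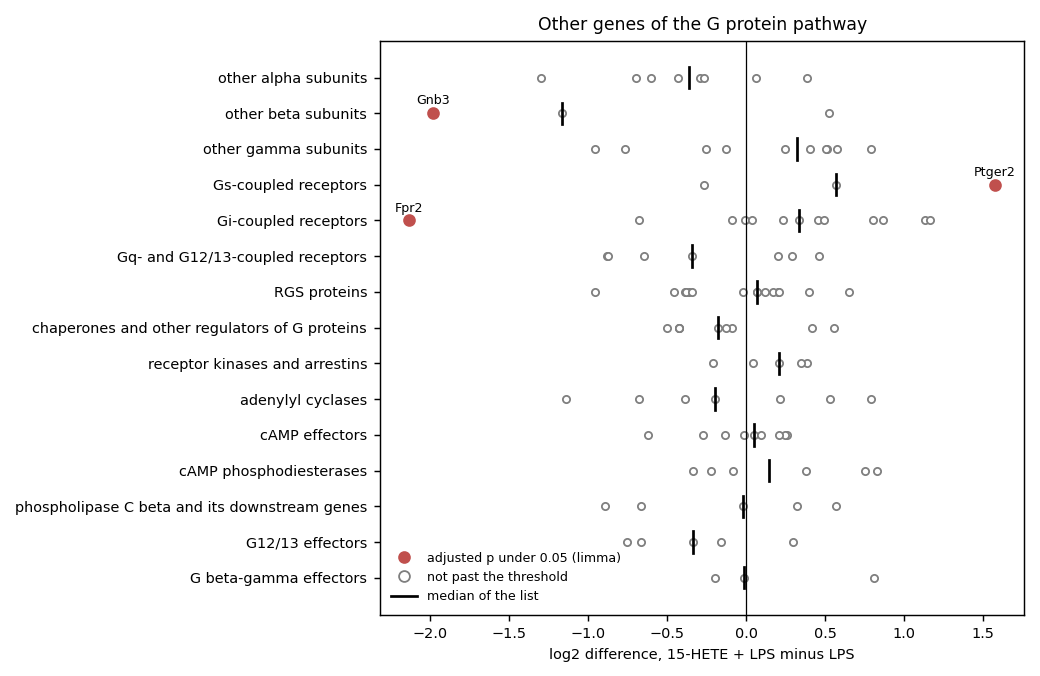
Log2 difference (15-HETE + LPS minus LPS) of each measured gene in 15 lists around the G proteins, at its brightest probe, with the list median as a black bar. Red filled points passed limma at an adjusted p under 0.05: Ptger2 at 1.58, Fpr2 at -2.13 and Gnb3 at -1.98.

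For each Gnas probe the most similar probes of 1 symbol over the array median are given as a description. Likeness was Pearson's r over the 6 samples, which share their arrays, and as r runs across both groups it includes each probe's group difference. Probe 646267 was most like Zfp36l2 (r = 0.996), Ero1b and Slc35a4 (0.995 each), and 782 of 8902 probes had an r over 0.9. Probe 599266 was most like Uso1 (0.994), Pdcd6ip (0.992) and Xpnpep1 (0.990), with 224 probes over 0.9. Probe 573503 was most like Fam71e2 (0.946), Olfr96 (0.945) and Prnp (0.931), with 11 of 8903 over 0.9.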

How the data were processed

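Total RNA of 6 samples was labelled and hybridized to mouse genome survey arrays with chemiluminescent detection. The authors deposited linear intensity values that had been quantile normalized with the array system's processing, and sorted values differed by at most 0.224% between samples. The study's filter on S/N and flags could not be repeated, so all 33012 probes were tested. Background correction is not given in the sources used here.

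Intensities were turned to log2 with no offset. Platform annotation gave 1 gene symbol for 14411 probes (13840 genes) and several for 247. Only probes of 1 symbol were named. Coordinates and promoter windows are from RefSeq (GRCm38.p6), and 7 of the 8 measured genes had a window, as did Gna12 and Gnb1. Under R 4.3.3 the package limma 3.58.1 fitted a linear model per probe with its default moderated variance. Two-sided p-values were adjusted over all probes by Benjamini-Hochberg and called under 0.05. The script was tested on simulated data. Alternatives were an intensity trend, a robust prior, an offset of 100, probes above the array median only, cyclic loess, scaling to 10 housekeeping genes, the replicate number as a block, the methods' t-test and leaving out each sample. Pathway genes were read at their brightest probe. Named were all probes of the 10 genes, the called genes and the 2 lowest p-values of each pathway list, and further subunits. The genes and lists were chosen with earlier results of these data known.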

Additional observations from a re-analysis of the deposited data

How the results depend on the processing

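Limma called 0 of the 12 probes of the G protein subunits. The count was 3 with the intensity trend, 2 among probes above the median only and 1 with the methods' t-test and fold rule at an unadjusted p. It was 0 when that p was adjusted over all probes or over those that met the 1.8-fold rule, in both cases without the study's filter. Leaving out single samples gave 0 to 4, where 4 needed the trend and LPS replicate 1 left out. Pathway genes called higher numbered 1, and 4 with the trend, 2 with an offset of 100, 6 above the median, 2 with housekeeping scaling, 0 with the methods' t-test adjusted over all probes and 3 with its fold rule at an unadjusted p. Pathway genes called lower numbered 2, and 4 with the trend, 1 with a robust prior, 6 above the median, 1 with cyclic loess, 0 with housekeeping scaling, 0 with the methods' t-test adjusted over all probes, 4 with its fold rule at an unadjusted p and 0 when its adjustment covered only probes that met the 1.8-fold rule. Leaving out single samples gave 0 to 11 in either direction, 11 with the trend and without LPS replicate 1. The leave-one-out fits with the trend and that last adjustment were chosen after seeing the data. With the replicate block, 0 of the 12 probes, 0 higher and 0 lower pathway genes were called, and 0 of all 33012 probes, as with the methods' t-test adjusted over all probes. Same-numbered samples did not deviate together (correlations of -0.022 to 0.020), so the numbers give no pairing. Array-wide, limma called 168 probes higher and 146 lower, against 1279 and 1638 with the trend, 1207 and 1589 of 16506 above the median (16.9%), 345 and 358 with the offset, 100 and 62 with the robust prior, 199 and 117 with cyclic loess and 221 and 128 with housekeeping scaling. The cause of these differences was not tested. Of the 12 log2 differences, those of Gnas 599266, Gnb2 and Gng12 changed sign without LPS replicate 1, that of Gnaq also with housekeeping scaling, and Gna13 576697 was 0.58 with housekeeping scaling.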
